A study of Mus musculus with 12 samples.

Results

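Cc2d2a, 5830411N06Rik, Exph5 and Mmp25 are 4 weakly expressed genes, of 17955 in the deposited expression table and 12903 that passed a filter on low counts, whose RNA was lower in regulatory T cells (Tregs) without transketolase than in wild-type Tregs. They were selected on these libraries for being lower in the knockout under both treatments of the study, so the comparison of genotypes below is a description with no test, and the change with treatment is the only contrast of the 4 genes that was tested. All 4 passed the filter. The libraries came from CD4+CD25+YFP+ Tregs sorted from the spleen and lymph node of C57BL/6 mice aged 7 weeks. The wild-type (WT) mice were Foxp3YFP-cre TKT+/+ and the conditional knockout (cKO) mice Foxp3YFP-cre TKTfl/fl, so the mice of every group carried the Cre recombinase that is driven from Foxp3 and is active in Foxp3-expressing cells. Each genotype was given either vehicle or DMαKG, a cell-permeable ester of the metabolite α-ketoglutarate, in the drinking water from the mother's pregnancy until the offspring were adult. Each of the 4 groups held 3 libraries, numbered 2 to 4 in the vehicle groups and 1 to 3 in the DMαKG groups.

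Transketolase, encoded by Tkt, works in the non-oxidative arm of the pentose phosphate pathway, where it exchanges carbon between sugar phosphates and so links glycolysis to the supply of ribose. Tregs are the CD4+ T cells, defined by the transcription factor Foxp3, that restrain immune responses. The 4 genes encode proteins of unrelated kinds. Cc2d2a encodes a coiled-coil and C2 domain protein of the transition zone, the gate at the base of the primary cilium, and is mutated in Joubert and Meckel syndromes; lymphocytes as a rule carry no primary cilium. 5830411N06Rik, also called Scart2, encodes a membrane protein of the scavenger receptor cysteine-rich family that is known from γδ T cells. Exph5 encodes exophilin 5, also called Slac2-b, which binds the small GTPase Rab27 on secretory vesicles and is mutated in a form of inherited skin fragility. Mmp25 encodes a membrane-type matrix metalloproteinase (MT6-MMP, or leukolysin) that is anchored by a lipid tail and known from neutrophils.

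The 4 genes lie on 4 chromosomes of the GRCm38 assembly, the build that mm10 names, and all 4 matched a RefSeq gene by their identifier. Cc2d2a (gene 231214) spans chr5:43662374-43740975 on the plus strand and overlaps the non-coding gene Gm35762. 5830411N06Rik (gene 244234) spans chr7:140247279-140300734 and Exph5 (gene 320051) spans chr9:53301514-53381166, both on the plus strand with no overlapping RefSeq gene. Mmp25 (gene 240047) spans chr17:23628315-23645269 on the minus strand and overlaps the protein-coding gene Bicdl2 and the pseudogene Gm7773. The use of strand in counting reads was not stated in the labels or the table, so the counts of Mmp25 and Cc2d2a are uncertain to the extent that reads come from these partners. Bicdl2 was listed at a mean of 0.0985 CPM (counts scaled to library size), against 1.75 CPM for Mmp25, and Gm35762 was not analysed here.

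The RefSeq promoter windows of GRCm38.p6, each 300 bases around an annotated start of transcription, are shown for the 4 genes. These genes were chosen for the same direction of genotype difference and share no position in the genome. For 5830411N06Rik the first of 3 windows is shown. Capitals mark matches to any of 12 short motifs searched on both strands.
Cc2d2a, chr5:43662129-43662428, plus strand: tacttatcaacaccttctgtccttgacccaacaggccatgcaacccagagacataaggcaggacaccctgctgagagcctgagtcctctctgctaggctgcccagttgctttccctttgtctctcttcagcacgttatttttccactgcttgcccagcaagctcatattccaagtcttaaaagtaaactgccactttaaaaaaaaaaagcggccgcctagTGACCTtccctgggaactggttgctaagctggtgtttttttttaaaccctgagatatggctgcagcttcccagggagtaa
5830411N06Rik, chr7:140247051-140247350, plus strand: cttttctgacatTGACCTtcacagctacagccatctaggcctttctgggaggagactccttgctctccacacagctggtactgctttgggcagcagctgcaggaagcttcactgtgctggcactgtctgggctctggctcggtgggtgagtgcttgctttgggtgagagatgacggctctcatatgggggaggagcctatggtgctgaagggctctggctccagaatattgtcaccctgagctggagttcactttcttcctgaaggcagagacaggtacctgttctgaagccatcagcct
Exph5, chr9:53301420-53301719, plus strand: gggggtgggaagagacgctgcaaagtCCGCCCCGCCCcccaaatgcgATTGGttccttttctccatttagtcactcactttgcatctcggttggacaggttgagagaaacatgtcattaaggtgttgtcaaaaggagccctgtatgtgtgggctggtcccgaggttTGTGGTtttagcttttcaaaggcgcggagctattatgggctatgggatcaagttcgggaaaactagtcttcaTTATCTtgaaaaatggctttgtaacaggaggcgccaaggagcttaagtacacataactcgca
Mmp25, chr17:23645220-23645519, minus strand: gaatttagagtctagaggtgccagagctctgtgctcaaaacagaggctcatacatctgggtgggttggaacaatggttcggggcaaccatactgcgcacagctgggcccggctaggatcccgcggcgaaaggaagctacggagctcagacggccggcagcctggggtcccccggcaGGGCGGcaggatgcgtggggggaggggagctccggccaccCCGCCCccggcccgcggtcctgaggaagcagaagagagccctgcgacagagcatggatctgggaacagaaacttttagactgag
The windows differ in base composition. Cc2d2a holds 3 CpG dinucleotides, 5830411N06Rik 2, Exph5 11 and Mmp25 18, beside a median of 7 over 32851 windows of the same length. Of those windows, 14.1% hold fewer CpGs than that of 5830411N06Rik and 70.3% fewer than that of Mmp25, so the 4 genes share neither a CpG-rich nor a CpG-poor start. No motif was found in all 4. The nuclear receptor core AGGTCA, present in 16.3% of all windows, matched on the minus strand at position 221 of the Cc2d2a window and position 13 of the 5830411N06Rik window, counted from 1 at the 5′ end. The GC box GGGCGG, present in 35.7% of all windows, matched in Exph5 at positions 27 and 32, where both matches overlap, and in Mmp25 at positions 177 and 217. Exph5 also held the RUNX core TGTGGT (16.8% of windows), the CCAAT box CCAAT (37.4%) and the GATA motif AGATAA (11.2%). The other motifs searched were AP-1 (TGANTCA, 7.81% of windows), the cAMP response element (TGACGTCA, 1.79%), ETS (CCGGAAGT, 3.89%), the TATA box (TATAAA, 13.6%), STAT (TTCNNNGAA, 8.30%), T-box (AGGTGTGA, 1.28%) and forkhead (GTAAACA, 3.65%). A match describes the letters only, and a window without one says nothing about the factor.

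The libraries held 15706730 to 18878544 estimated counts, with 12305 to 12584 genes at 10 or more. Tkt, the targeted gene, was at 102 to 133 CPM in WT and 26.2 to 41.8 CPM in cKO with vehicle, and at 110 to 194 and 31.5 to 37.8 CPM with DMαKG, so every library matched its genotype label. In edgeR's quasi-likelihood test Tkt had a log2 fold change of -1.72 (SE 0.21, adjusted p = 0.0212) with vehicle and -2.08 (SE 0.22, adjusted p = 0.00600) with DMαKG. The 8 Treg and T cell markers read as a check of the sort summed to 4053 to 6822 CPM. With vehicle the sums were 4392 to 4491 CPM in WT and 4053 to 4861 in cKO, with overlap. With DMαKG they were 4485 to 5683 CPM in WT and 5932 to 6822 in cKO, where the genotypes did not overlap. On the first principal component, which held 29.0% of the variance, 3 libraries had similar low scores: replicate 4 of WT with vehicle (-32.9), replicate 4 of cKO with vehicle (-32.8) and replicate 3 of WT with DMαKG (-29.7). The highest score was that of replicate 3 of cKO with DMαKG (47.0). Y-linked transcripts summed to 348 to 449 CPM in every cKO vehicle library, while 1 WT vehicle library (16.4), 1 WT DMαKG library (60.9) and 2 cKO DMαKG libraries (15.2 and 22.6) were low, so Y-linked levels were spread unevenly over the groups.

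All 4 genes lie low in the range of expression. Their means over the 12 libraries were 4.40 CPM for Cc2d2a, 3.03 for 5830411N06Rik, 2.67 for Exph5 and 1.75 for Mmp25, and 22.5%, 18.9%, 17.8% and 13.8% of tested genes had a lower mean. Per transcript length, which is the scale on which genes can be compared, 5830411N06Rik was highest in WT Tregs with vehicle at 4.79 ± 2.17 TPM (scaled for transcript length and library depth, mean ± SD, n = 3), followed by Cc2d2a at 2.91 ± 1.11, Mmp25 at 2.12 ± 0.628 and Exph5 at 1.04 ± 0.256. In estimated counts, a WT library held 85 to 169 for Cc2d2a, 37 to 176 for 5830411N06Rik, 57.45 to 94 for Exph5 and 33.27 to 73.89 for Mmp25. A cKO library held 20 to 53, 11 to 27, 17 to 35.2 and 6.03 to 22.42. At these counts, counting error alone gives a coefficient of variation of 9.17% (Cc2d2a) to 14.3% (Mmp25) at the mean WT count and 16.3% to 27.0% at the mean cKO count. The counts of Mmp25 were fractional in all 12 libraries and those of Exph5 in 4, whereas those of Cc2d2a and 5830411N06Rik were whole in all 12.

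Cc2d2a, the transition zone gene, was at 4.80, 5.05 and 8.86 CPM in WT Tregs and at 1.08, 2.25 and 1.39 CPM in cKO Tregs with vehicle, in the order of replicates 2, 3 and 4. With DMαKG it was at 6.62, 7.60 and 6.46 CPM in WT and 3.43, 2.37 and 2.86 CPM in cKO, in the order of replicates 1, 2 and 3. Every cKO library was below every WT library under both treatments, and WT vehicle replicate 4 stood above the other WT libraries. With vehicle, Cc2d2a in cKO was at 25.3% of its WT mean (1.58 ± 0.605 against 6.24 ± 2.28 CPM, SD, n = 3) and with DMαKG at 41.9% (2.89 ± 0.534 against 6.89 ± 0.617 CPM). The fitted log2 fold change was -1.98 (SE 0.31) with vehicle and -1.26 (SE 0.30) with DMαKG. Without the 3 libraries of low score on the first component, the value with vehicle was -1.57.

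5830411N06Rik, the scavenger receptor gene, was at 4.07, 5.72 and 9.23 CPM in WT and 1.46, 1.04 and 1.19 CPM in cKO Tregs with vehicle. With DMαKG it was at 2.17, 3.57 and 5.18 CPM in WT and 0.712, 1.10 and 0.954 CPM in cKO. The WT libraries of this gene were the most spread of the 4 genes, while its cKO libraries lay close together, and no cKO library reached the lowest WT library of its treatment. The cKO mean was 19.4% of WT with vehicle (1.23 ± 0.213 against 6.34 ± 2.64 CPM) and 25.3% with DMαKG (0.921 ± 0.194 against 3.64 ± 1.50 CPM). Its fitted log2 fold change was -2.36 (SE 0.38) with vehicle and -1.97 (SE 0.39) with DMαKG, the most negative of the 4 genes under each treatment.

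Exph5, the Rab27 effector, was at 3.56, 5.22 and 4.09 CPM in WT and 1.90, 1.43 and 1.13 CPM in cKO Tregs with vehicle. With DMαKG it was at 3.98, 3.80 and 3.04 CPM in WT and 1.75, 0.981 and 1.21 CPM in cKO. The genotypes did not overlap, and the ranges under vehicle and DMαKG overlapped within each genotype. The cKO mean was 34.6% of WT with vehicle (1.49 ± 0.384 against 4.29 ± 0.848 CPM) and 36.4% with DMαKG (1.31 ± 0.394 against 3.61 ± 0.499 CPM). The fitted log2 fold change was -1.53 (SE 0.28) with vehicle and -1.46 (SE 0.29) with DMαKG.

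Mmp25, the metalloproteinase gene, was at 4.18, 3.66 and 2.26 CPM in WT and 0.596, 0.879 and 0.670 CPM in cKO Tregs with vehicle. With DMαKG it was at 2.17, 2.27 and 1.76 CPM in WT and 0.389, 1.27 and 0.890 CPM in cKO. The genotypes did not overlap, but the gap was narrower with DMαKG, where the lowest WT library was 1.39 times the highest cKO library, than with vehicle, where it was 2.57 times. WT vehicle replicate 4, the highest WT vehicle library for Cc2d2a and 5830411N06Rik, was the lowest for Mmp25. The cKO mean was 21.2% of WT with vehicle (0.715 ± 0.147 against 3.37 ± 0.995 CPM) and 41.1% with DMαKG (0.849 ± 0.442 against 2.07 ± 0.269 CPM). The fitted log2 fold change was -2.22 (SE 0.38) with vehicle and -1.26 (SE 0.39) with DMαKG.

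**Figure D1:**
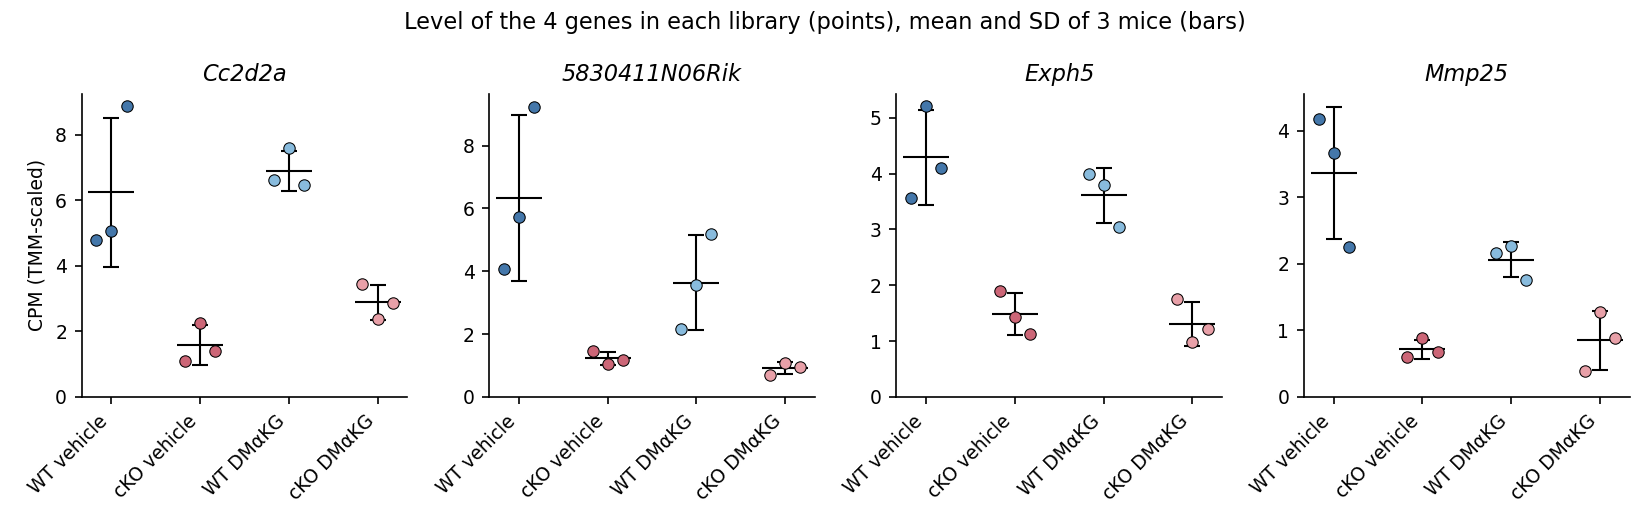
Level of each gene in CPM (scaled by TMM) in every library, with 1 panel per gene and its own axis; points are libraries in order of replicate number, horizontal bars the mean and vertical bars the SD of 3. In each panel both cKO groups lie below both WT groups of the same treatment, and the Cc2d2a points of cKO with DMαKG (2.37 to 3.43 CPM) lie above those of cKO with vehicle (1.08 to 2.25 CPM).

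The share of all tested genes that show the same separation gives the scale for this choice of genes. With vehicle, 7.01% of the 12903 tested genes had every cKO library below every WT library, and with DMαKG 7.04% did; all 4 genes are among both, as they were chosen to be. Under both treatments at once, 1.31% of tested genes (169) were separated in this way, and 0.155% (20 genes) also had a log2 fold change below -1 with each treatment. Those 20 include the 4 genes and Tkt, and 13 of the 20 had a mean below 5 CPM. Other genes among the 20, named here after their values were seen, are Ccr2 (33.8 CPM on average), the receptor for a monocyte-attracting chemokine, and Klrg1 (28.1 CPM), an inhibitory receptor of effector lymphocytes. By adjusted p below 0.05 in edgeR, 0.0233% of tested genes (3) passed with vehicle and 0.0698% (9) with DMαKG. Nothing is read about the 4 genes from these shares, since the same contrasts chose them.

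**Figure D2:**
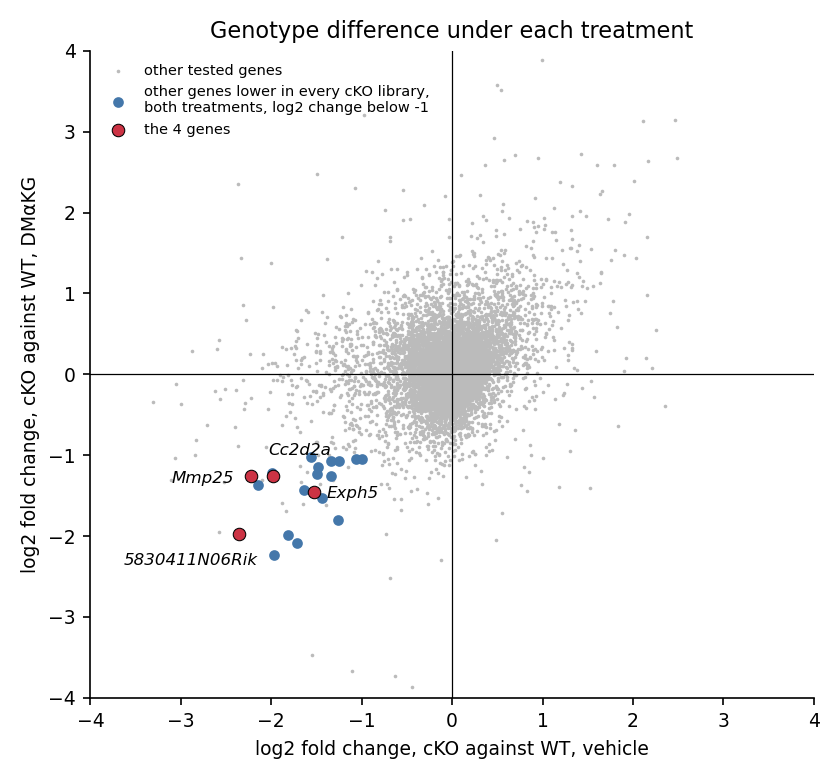
Fitted log2 fold change of cKO against WT with vehicle (horizontal) and with DMαKG (vertical) for all tested genes, 12 of which lie outside the axes; red points are the 4 genes and blue points the other 16 of the 20 genes that were lower in every cKO library with both treatments and had log2 fold changes below -1. 5830411N06Rik lies at -2.36 and -1.97, and Cc2d2a and Mmp25 lie farther from 0 on the vehicle axis than on the DMαKG axis.

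The knockout difference was smaller with DMαKG than with vehicle for Cc2d2a and Mmp25 and nearly equal for Exph5, within wide errors. The log2 difference with DMαKG minus that with vehicle was 0.73 for Cc2d2a (SE 0.43, 95% interval -0.21 to 1.66) and 0.96 for Mmp25 (SE 0.54, interval -0.22 to 2.14). It was 0.39 for 5830411N06Rik (SE 0.54, interval -0.80 to 1.57) and 0.07 for Exph5 (SE 0.41, interval -0.82 to 0.95). Every interval includes 0. These differences are built from the contrasts that chose the genes, so they are a description, and whether the genotype difference depends on treatment was not tested.

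DMαKG against vehicle within a genotype was not itself the contrast that chose the genes, and it was tested. The same libraries entered the choice, however, so these tests are not fully independent of it. It asks whether the levels of the 4 genes moved with the supplement in Tregs that have transketolase and in Tregs that lack it. In WT Tregs 0 of the 4 genes passed an adjusted p of 0.05 in edgeR, DESeq2 or limma voom, and 1 had an unadjusted edgeR p below 0.05. Over all tested genes edgeR called 0% in this comparison, with 352 at an unadjusted p below 0.05, DESeq2 called 2 and voom 0. The gene with the unadjusted p below 0.05 was 5830411N06Rik, whose WT mean with DMαKG was 57.4% of that with vehicle (log2 fold change -0.80, SE 0.35, 95% interval -1.55 to -0.04, edgeR adjusted p = 0.999). Its WT libraries overlapped between treatments, at 2.17 to 5.18 against 4.07 to 9.23 CPM, and the log2 fold change was -0.42 without WT vehicle replicate 4 and -1.14 without WT DMαKG replicate 3. Mmp25 was at 61.4% of its vehicle level in WT (log2 fold change -0.70, SE 0.35, interval -1.46 to 0.06, edgeR adjusted p = 0.999), and its groups overlapped narrowly, the highest DMαKG library being at 2.27 and the lowest vehicle library at 2.26 CPM. Cc2d2a was at 110% (log2 fold change 0.14, SE 0.29, interval -0.48 to 0.77) and Exph5 at 84.1% (log2 fold change -0.25, SE 0.27, interval -0.83 to 0.33). For none of the 4 did every WT DMαKG library lie below or above every WT vehicle library, as 3.86% and 4.59% of tested genes did.

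In cKO Tregs 0 of the 4 genes passed an adjusted p of 0.05 in edgeR, DESeq2 or limma voom, and 1 had an unadjusted edgeR p below 0.05. Over all tested genes edgeR called 0% here too, with 2247 at an unadjusted p below 0.05, DESeq2 called 385 and voom 0. The gene with the unadjusted p below 0.05 was Cc2d2a, at 183% of its vehicle level (log2 fold change 0.87, SE 0.32, 95% interval 0.17 to 1.57, edgeR adjusted p = 0.216). All 3 cKO DMαKG libraries were above all 3 cKO vehicle libraries of Cc2d2a, the nearest pair being 2.37 and 2.25 CPM; 8.91% of tested genes were separated in this direction. None of the 4 genes was separated in the other direction, as 12.2% of tested genes were. The highest cKO DMαKG library of Cc2d2a was at 3.43 CPM and the lowest of all WT libraries at 4.80 CPM, which is a description, since the gene was chosen for being lower in cKO. 5830411N06Rik was at 74.8% of its vehicle level in cKO (log2 fold change -0.41, SE 0.41, interval -1.31 to 0.49), Exph5 at 88.3% (-0.18, SE 0.30, interval -0.84 to 0.47) and Mmp25 at 119% (0.26, SE 0.41, interval -0.64 to 1.16). These intervals lie on both sides of 0, and a test that did not pass does not show that the levels were equal.

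**Figure D3:**
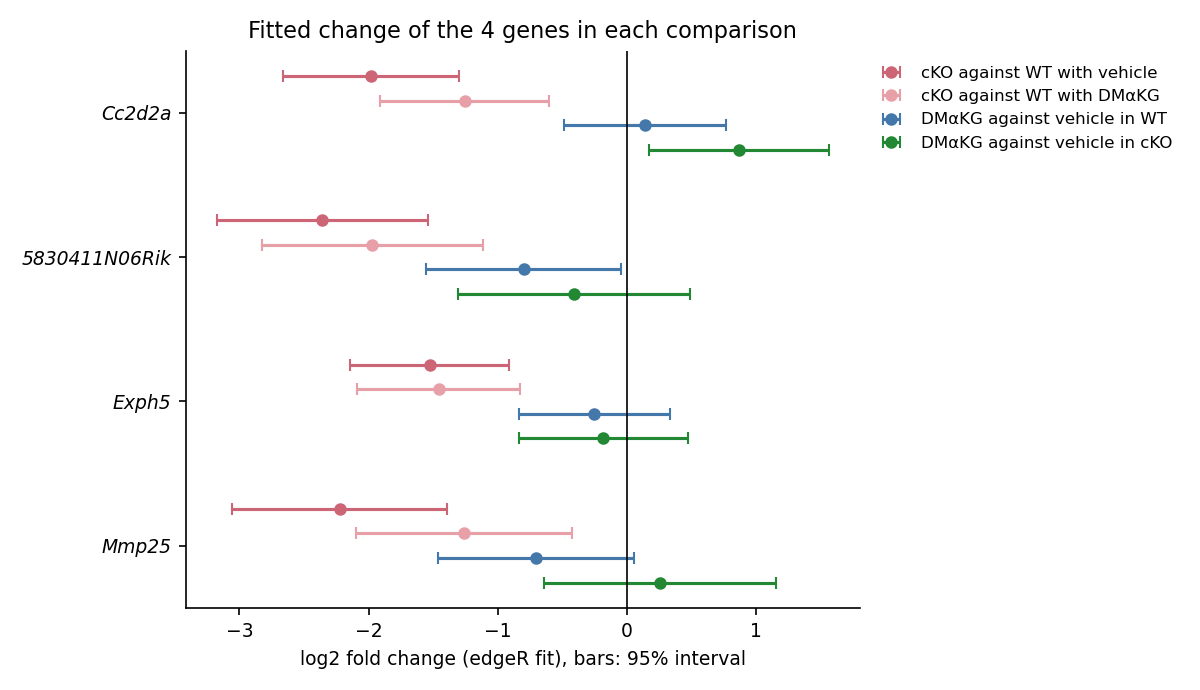
Fitted log2 fold change (points) with 95% interval (bars) of the 4 genes in each of 4 comparisons; the genotype comparisons chose the genes and are shown as a description. The genotype points lie between -2.36 and -1.26, and the treatment points between -0.80 and 0.87, with 2 of the 8 treatment intervals not including 0 before adjustment.

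In order of level, Cc2d2a was highest in WT with DMαKG, then WT with vehicle, cKO with DMαKG and cKO with vehicle, and only the WT groups overlapped. 5830411N06Rik and Exph5 had another order, with WT vehicle first, then WT with DMαKG, cKO with vehicle and cKO with DMαKG. For both genes the groups of one genotype overlapped and those of different genotypes did not. Mmp25 followed the order WT vehicle, WT DMαKG, cKO DMαKG and cKO vehicle, again with overlap inside each genotype and none between them.

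Genes beside the 4 were read to see whether a wider stretch of the chromosome was lower. The nearest genes of the table on each side, and Bicdl2, came to 9, of which 6 passed the low-count filter. In edgeR, DESeq2 and voom 0 of the 6 passed in either genotype comparison, with 1 (vehicle) and 0 (DMαKG) at an unadjusted edgeR p below 0.05. The one gene was Fbxl5, which encodes an iron-sensing part of a ubiquitin ligase and lies 3642 bases beyond Cc2d2a. Fbxl5 was at 90.4 CPM in WT and 75.5 in cKO with vehicle (log2 fold change -0.26, SE 0.10, edgeR adjusted p = 0.586) and at 92.8 and 86.5 with DMαKG. Cd163l1, a second scavenger receptor gene of γδ T cells, lies 16133 bases before 5830411N06Rik. It was at 1.07 CPM in WT and 0.500 in cKO with vehicle (log2 fold change -1.09, SE 0.63, edgeR adjusted p = 0.797) and at 0.408 and 0.208 with DMαKG (-0.96, SE 0.80, adjusted p = 0.707). Its direction was that of 5830411N06Rik, at levels where the errors are too large for a call. Poglut3, an enzyme that adds sugars to secretory proteins, lies 1837 bases from Exph5 and had log2 fold changes of -0.38 (SE 0.20) and -0.06 (SE 0.20), and Ddx10, a helicase gene on the other side, 0.05 and -0.14. Beside Mmp25, Thoc6, a part of the complex that exports mRNA, was at 0.06 and -0.11, and Zscan10, a zinc finger gene at group means of 0.463 to 1.26 CPM, at 1.44 (SE 0.86) and -0.17 (SE 0.84). C1qtnf7 and Olfr525 were below the filter.

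**Figure D4:**
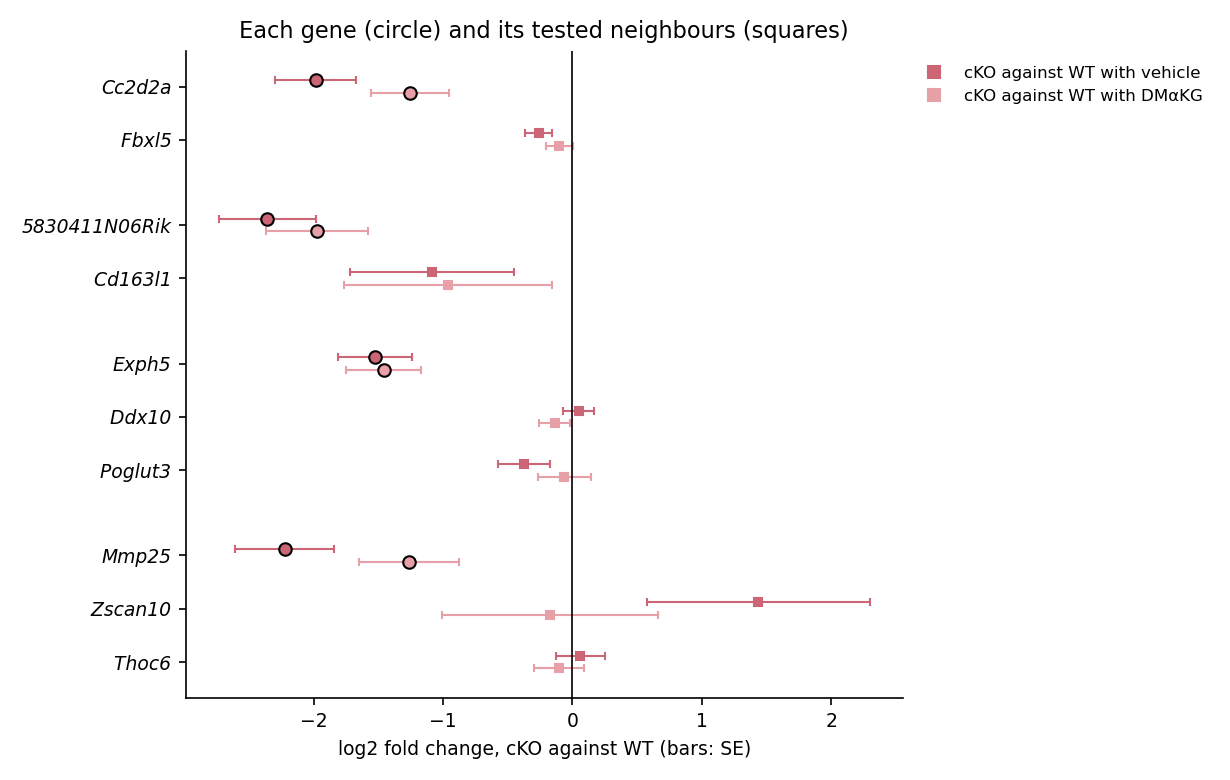
Fitted log2 fold change (points) with its SE (bars) of cKO against WT with vehicle and with DMαKG, for the 4 genes (circles) and their nearest tested neighbours on the chromosome (squares). Fbxl5, Ddx10, Poglut3 and Thoc6 lie between -0.38 and 0.06, while Cd163l1 lies at -1.09 and -0.96 with wide bars.

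The families to which the 4 proteins belong were read next, leaving out the 4 genes. In every family edgeR called 0 genes in either genotype comparison. For scale, 955 of the 12903 tested genes were at an unadjusted edgeR p below 0.05 with vehicle and 1357 with DMαKG, DESeq2 called 100 and 143, and voom 4 and 6. Of 22 tested transition zone genes, 18 had a log2 fold change above 0 with vehicle (median 0.23) and 21 with DMαKG (median 0.38), beside medians of 0.0072 and -0.00044 over all tested genes, so Cc2d2a (-1.98 and -1.26) lay on the other side of 0 from most of its complex. These counts were the same with DESeq2 size factors and with upper-quartile scaling. Of the 22, 4 and 6 were at an unadjusted edgeR p below 0.05, DESeq2 called 1 and 2, and voom 0 in each. The most abundant members, Cspp1, a centrosome and spindle protein, and Invs (inversin), had log2 fold changes of -0.27 and 0.07 with vehicle and 0.08 and -0.17 with DMαKG.

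The scavenger receptor cysteine-rich family had 13 tested genes beside 5830411N06Rik, of which 8 were below 0 with vehicle (median -0.17) and 5 with DMαKG (median 0.17). Of them 2 and 1 were at an unadjusted edgeR p below 0.05, and DESeq2 and voom called 0. Cd6 and Cd5, the abundant T cell receptors of this family that tune antigen receptor signals, were at 536 and 481 CPM in WT with vehicle and 577 and 483 in cKO (log2 fold changes 0.11 and 0.01), and at -0.12 and -0.15 with DMαKG. Rab27 and its effectors had 10 tested genes beside Exph5, of which 7 were above 0 in each comparison (medians 0.12 and 0.06), with 1 and 3 at an unadjusted edgeR p below 0.05. DESeq2 called 2 of them with DMαKG, Sytl1 and Sytl3, synaptotagmin-like effectors that were higher in cKO, and none with vehicle, and voom called 0. Genes of these lists that are named for a DESeq2 call were chosen after their values were seen. Unc13d (Munc13-4), which primes lytic granules for fusion, and Rab27a were the most abundant, with log2 fold changes of 0.25 and 0.14 with vehicle and -0.05 and -0.03 with DMαKG.

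Of the matrix metalloproteinases and their inhibitors, 9 of 25 were expressed enough to be tested beside Mmp25; 3 were below 0 with vehicle (median 0.36) and 5 with DMαKG (median -0.08). Of the 9, 1 and 0 were at an unadjusted edgeR p below 0.05, and DESeq2 and voom called 0. Timp2, an inhibitor of these proteases, had log2 fold changes of -0.17 and -0.30, and Mmp14, a membrane-type protease that activates Mmp2, 0.36 and -0.64. A list of genes of effector and tissue Tregs was read because Klrg1 and Ccr2 showed the pattern of the 4 genes. Leaving out Klrg1 and Ccr2, which led to the reading of this list, 19 of 24 tested were below 0 with vehicle (median -0.43) and 11 with DMαKG (median 0.02), with 10 and 6 at an unadjusted edgeR p below 0.05. Of the 24, DESeq2 called 3 with vehicle (Il1rl1, Cxcr6 and S100a4) and 1 with DMαKG (Itgae), and voom called 0. Ccr2 itself was at 68.0 CPM in WT and 15.4 in cKO with vehicle and at 37.4 and 14.5 with DMαKG (edgeR log2 fold changes -2.14 and -1.37, adjusted p = 0.103 and 0.231). DESeq2 called Ccr2 in both comparisons and voom in neither. The gene was picked on these same contrasts, so its values are a description. The most abundant of the list, Ikzf3, a lymphoid transcription factor, and Icos, a costimulatory receptor, had log2 fold changes of -0.18 and -0.04 with vehicle and -0.21 and 0.69 with DMαKG.

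**Figure D5:**
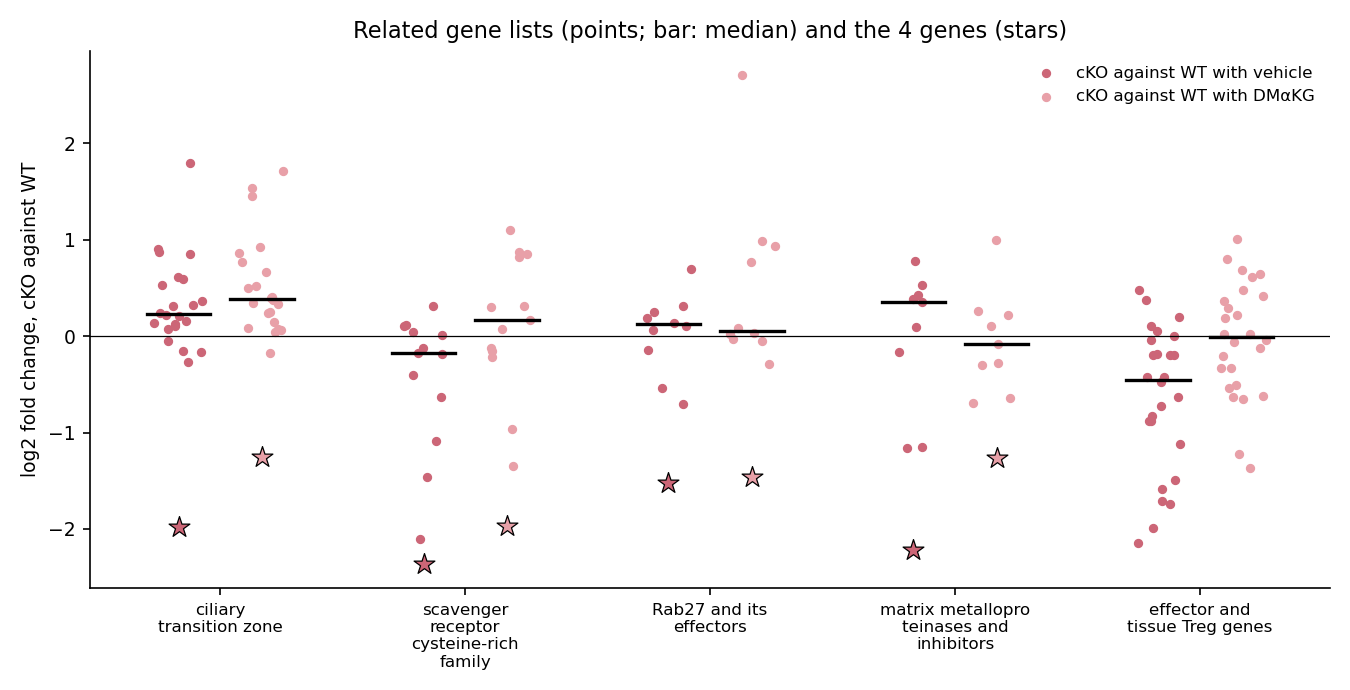
Fitted log2 fold change of cKO against WT for the tested genes of 5 lists (points, spread sideways for legibility), with the median of each list (bar) and the 4 genes (stars) in the list of their family. The stars lie below most points of their families, and the transition zone points lie mostly above 0, with medians of 0.23 and 0.38.

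Markers of other cells that a sort could hold were read beside these results, as 2 of the 4 genes are known from other leukocytes. The γδ T cell markers reported here summed to 3.41 to 6.10 CPM in WT and 1.35 to 2.64 in cKO with vehicle, where the genotypes did not overlap, and to 2.03 to 2.55 and 2.02 to 4.83 with DMαKG, where they did. The tested markers Blk, Cd163l1, Il23r and Il17a had log2 fold changes of -1.22, -1.09, -1.18 and -1.67 with vehicle (lowest edgeR adjusted p = 0.605) and 1.70, -0.96, 0.52 and 0.13 with DMαKG (lowest edgeR adjusted p = 0.334). Sox13, a defining factor of these cells, was at 0.324 CPM or less. Trdc, Tcrg-C1 and Trdv4 were not found under these names among the 17955 genes listed. The 12 neutrophil markers summed to 16.4 to 21.8 CPM in WT and 13.1 to 16.0 in cKO with vehicle, where the genotypes narrowly did not overlap. With DMαKG they summed to 15.2 to 18.3 in WT and 16.3 to 60.2 in cKO, with overlap. The 60.2 was cKO DMαKG replicate 3, and the other cKO libraries were at 16.3 and 17.7. The neutrophil markers Ly6g, Mmp8 and Elane were at a mean of 0.17 CPM or less in every group, but others of the list were higher. Cxcr2 had group means of 8.51 to 10.7 CPM and Csf3r of 2.24 to 2.94 CPM. S100a8, S100a9 and Ngp had means of 3.96, 3.93 and 3.44 CPM in cKO with DMαKG, and of 0.572 CPM or less in the other groups. Of 6 tested neutrophil markers, 3 were below 0 with vehicle and 1 with DMαKG.

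Macrophage and monocyte markers summed to 84.5 to 247 CPM in WT and 47.1 to 132 in cKO with vehicle, with 12 of 12 tested genes below 0, and to 63.2 to 249 and 101 to 292 with DMαKG, with 3 of 12 below 0. Dendritic cell markers summed to 68.7 to 133 and 56.5 to 72.4 CPM with vehicle (9 of 10 below 0) and to 66.3 to 73.7 and 61.9 to 98.1 with DMαKG (6 of 10). The macrophage sum of 292 and the dendritic sum of 98.1 were both cKO DMαKG replicate 3. The other cKO DMαKG libraries were at 106 and 101 for macrophage markers and at 61.9 and 61.9 for dendritic cell markers. Epithelial and stromal markers, read because Exph5 is known from skin, summed to 172 to 190 and 158 to 187 CPM with vehicle and 165 to 232 and 180 to 200 CPM with DMαKG, overlapping between the genotypes. Most of this sum was Pecam1, an adhesion molecule of endothelium and leukocytes, at group means of 150 to 187 CPM, and the skin keratin gene Krt5 was at 0 in every vehicle library. Erythroid markers summed to 12.3 to 25.0 and 1.79 to 17.4 CPM with vehicle (5 of 6 below 0, median -0.79) and to 5.23 to 18.9 and 1.79 to 12.5 with DMαKG (6 of 6, median -0.64), in the direction of the 4 genes but with overlap between the genotypes.

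B cell and plasma cell markers summed to 15.7 to 27.9 and 13.2 to 25.7 CPM with vehicle (8 of 10 below 0) and to 18.6 to 24.3 and 21.4 to 76.4 with DMαKG (0 of 10). The 76.4 was cKO DMαKG replicate 3, and the other cKO libraries were at 24.2 and 21.4. Natural killer and innate lymphoid markers summed to 286 to 344 and 265 to 438 CPM with vehicle (2 of 7 below 0) and to 258 to 382 and 219 to 349 with DMαKG (2 of 7). CD8 T cell markers summed to 14.9 to 24.4 and 15.2 to 18.6 CPM with vehicle (2 of 2 below 0) and to 16.1 to 19.0 and 19.6 to 23.6 with DMαKG (0 of 2). Over the neutrophil, macrophage, dendritic, epithelial, erythroid, B cell and CD8 lists edgeR and voom called 0 genes in either genotype comparison. In that order the lists held 6, 12, 10, 6, 6, 10 and 2 tested genes. At an unadjusted edgeR p below 0.05 these lists held 1, 3, 6, 2, 0, 1 and 0 genes with vehicle and 2, 0, 3, 1, 0, 2 and 0 with DMαKG. Of all 12903 tested genes, 955 were below this p with vehicle and 1357 with DMαKG. DESeq2 called only dendritic cell markers of these lists, Xcr1 and Siglech with vehicle and Ccr9 with DMαKG. In the natural killer and innate lymphoid list edgeR and voom called 1 gene, with DMαKG: Kit, a growth factor receptor that was higher in cKO (19.4 against 7.00 CPM, log2 fold change 1.47, edgeR adjusted p = 0.016). DESeq2 called Kit in both genotype comparisons. With vehicle Kit was at 10.3 CPM in cKO and 5.51 CPM in WT (log2 fold change 0.90, edgeR adjusted p = 0.144). The part of such cells in the levels of the 4 genes was not tested, and in sorted bulk RNA fewer cells of a type and less RNA per cell cannot be told apart. In a fit that held the Y-linked level of each library as a covariate, an alternative chosen after seeing the data, the genotype log2 fold changes of the 4 genes lay between -2.50 and -1.32 with vehicle and between -1.79 and -1.20 with DMαKG.

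The 4 genes resembled each other over the libraries through the genotype split rather than through the spread inside the groups. Pearson's r of log2 CPM over the 12 libraries ran from 0.72 (Cc2d2a with Mmp25) to 0.85 (5830411N06Rik with Exph5). The r of deviations from the group means ran from -0.51 (Exph5 with Mmp25) to 0.12 (Cc2d2a with 5830411N06Rik) and was below 0 for 4 of the 6 pairs. These coefficients describe 12 libraries that share the groups by which the genes were chosen, and are given without a test. Over the same libraries, the genes most like Cc2d2a were BC049352 (r = 0.95), Nkg7, a cytotoxic granule membrane protein (0.93), and Nrn1, or neuritin (0.92). The genes most like 5830411N06Rik were Cxxc5, a zinc finger gene (0.95), and Gpr155 (0.91). Those most like Exph5 were Uros, an enzyme of heme synthesis, Gtf2a1, a general transcription factor, and Aftph, a vesicle-coat adaptor, with r of 0.93, 0.93 and 0.92. Those most like Mmp25 were Gm10130, Rec114, a gene of meiotic recombination, and Lcor, a corepressor, with r of 0.93, 0.91 and 0.91.

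The genes that resemble each member differed in how far they were from WT. Nrn1 was at 34.2 and 13.5 CPM in WT and cKO with vehicle and at 40.5 and 19.3 with DMαKG, and it is among the 20 genes lower by more than 1 on the log2 scale with both treatments. Nkg7 was at 20.7 and 11.8 CPM with vehicle and 23.1 and 13.8 with DMαKG, its means being higher with DMαKG in both genotypes, as were those of Cc2d2a. Aftph was at 162 and 142 CPM with vehicle and at 166 and 141 with DMαKG, so a likeness in pattern to Exph5 went with a far smaller fold. Cxxc5, at 4.06 and 2.50 CPM with vehicle and 3.83 and 2.45 with DMαKG, lay in the same low range of CPM as 5830411N06Rik.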

How the data were processed

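RNA was sequenced from sorted Tregs in 12 libraries, 3 mice in each of 4 groups per the series' design text, with groups and replicate numbers taken from the sample labels. RNA was extracted with Trizol, per the labels' protocols, and made into libraries with a NEBNext Ultra kit, per the design text. Per the submitters' processing notes, the build was mm10 and the tools included featureCounts 1.5.0-p3, HISAT2 2.0.5 and DESeq2 1.16.1, listed without their roles. The authors deposited 1 table with estimated counts, FPKM and TPM for 17955 genes. Per the file headers, the FPKM that the authors deposited are scaled by length and library size, and the deposited TPM are scaled to the same sum per library. Estimated counts, as the authors deposited them, carry no normalization, and 36.0% of values were not whole, so they were rounded before testing, although the tests had been planned for whole counts. How the fractions arose was not stated in the labels or the table. The lowest-depth library held 15706730 counts. Identifiers were matched to a RefSeq table of GRCm38.p6, and 17901 of 17955 matched.

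Genes passing edgeR's expression filter (12903) were scaled by TMM and fitted with edgeR 4.0.16 in R 4.3.3 (quasi-likelihood, 1 mean per group, 12 libraries, 8 residual degrees of freedom), with Benjamini-Hochberg adjustment over all tested genes of a comparison and a threshold of 0.05. CPM use TMM-scaled library sizes, fold changes come from the fit, 95% intervals from its standard error, and likeness from log2 CPM with a prior count of 2. The fit was tested on simulated counts. The 4 genes and the gene lists were chosen with earlier results of these data known. The motifs were chosen after the data were seen. Named genes are the 4, their nearest neighbours in the table, Tkt, list members past the threshold or else the 2 most abundant, and the 3 genes of highest Pearson's r with each of the 4; others are said to be named after their values were seen, and some genes are not reported here. Alternatives were other scalings, low-count filters and tools (DESeq2 1.42.0, limma 3.58.1 voom), deposited FPKM on a log2 scale with a pseudocount of 0.1, fits of only the groups compared, a replicate block, and leaving out each library. Robust estimates of the spread, a covariate of Y-linked level and leaving out 3 libraries were added after seeing the data.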

Additional observations from a re-analysis of the deposited data

How the results depend on the processing

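The genotype log2 fold changes of the 4 genes were below 0 in every setting run. Leaving out 1 library at a time, they ranged with vehicle from -2.33 to -1.64 (Cc2d2a), -2.60 to -1.98 (5830411N06Rik), -1.74 to -1.36 (Exph5) and -2.44 to -2.04 (Mmp25), and with DMαKG from -1.37 to -1.11, -2.22 to -1.63, -1.69 to -1.27 and -1.65 to -0.91. On deposited FPKM those of Exph5 were -1.16 and -1.05; the pseudocount of that scale shrinks low values. Without the 3 libraries of low score on the first component, Cc2d2a with vehicle was -1.57. None of the 4 passed with DMαKG in either genotype under any setting; the lowest adjusted p was 0.140 (Cc2d2a in cKO, DESeq2). The sign of the DMαKG change turned with 1 library in 3 cases: Cc2d2a in WT ranged from -0.014 (without WT vehicle replicate 2) to 0.48, Exph5 in cKO from -0.42 to 0.031 (without cKO vehicle replicate 2; 0.0096 without cKO DMαKG replicate 2), and Mmp25 in cKO from -0.13 (without cKO DMαKG replicate 2) to 0.62.

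Counts of called genes depended on the setting, and the cause was not tested. For cKO against WT with vehicle and with DMαKG, 3 and 9 genes became 9 and 26 without the low-count filter, 100 and 143 with DESeq2, 0 and 3 with only the groups compared, 8 and 24 with robust estimates, and 1 and 0 with the replicate block. Correlations of deviations between same-numbered WT and cKO libraries ran from -0.28 to 0.47. The highest was for replicate 4 with vehicle, whose WT and cKO libraries had similar scores on the first component. With 3 libraries per group these values cannot settle whether the replicate numbers pair the samples. With DMαKG, voom gave 6, the Y-linked covariate 2 and leaving out the 3 libraries of the first component 1. For DMαKG in cKO, 0 became 4 without the filter, 385 with DESeq2, 4 with only the groups compared and 13 without the 3 libraries; in WT DESeq2 gave 2. Leaving out 1 library gave 1 to 6 calls with vehicle (6 without cKO vehicle replicate 4, 1 without replicate 3 of WT, or 2 or 3 of cKO, with vehicle). With DMαKG it gave 0 to 17: 17 without cKO vehicle replicate 2, 14 without cKO DMαKG replicate 3, 0 without cKO DMαKG replicate 1 or 2, 3 without WT DMαKG replicate 1, 2 without replicate 2 or 4 of WT or 3 of cKO with vehicle, and 1 without WT DMαKG replicate 2 or 3. DMαKG in WT gave 0 throughout, and DMαKG in cKO 0 to 112: 112 without WT DMαKG replicate 3, 6 without cKO vehicle replicate 2 and 1 without WT vehicle replicate 3 or 4. At 6.03 to 53 counts per cKO library, the standard errors of the log2 change with DMαKG in cKO were 0.30 to 0.41, and a change of 0.87 (Cc2d2a) did not pass.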

Other observations

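The same separation of genotypes that chose the 4 genes also held for other weakly expressed genes that were not among them. They are given as a description, since the same libraries chose them, and were named after their values were seen. F13a1, a subunit of the clotting factor that cross-links fibrin and a gene of macrophages and platelets, had genotype log2 fold changes of -1.97 with vehicle and -2.24 with DMαKG at a mean of 4.34 CPM in WT. Tmprss13, a membrane serine protease gene, was at -1.44 and -1.52 (4.93 CPM in WT). Adam12, which encodes a membrane metalloproteinase of another family than Mmp25, was at -1.06 and -1.05 (7.91 CPM in WT), and Cacna1d, a voltage-gated calcium channel gene, at -1.25 and -1.07 (8.57 CPM in WT). Tmem273, a membrane protein gene, was at -1.64 and -1.43 (2.89 CPM in WT).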
